A study of Mus musculus with 9 samples.

Results

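The NF-kB and inflammatory cytokine genes examined here were 10 mouse genes, Nfkb1, Rela, Nfkbia, Tnfaip3, Il6, Ccl2, Ccl7, Cxcl1, Cxcl5 and Cxcl12, of 21938 protein-coding genes in the GENCODE M21 annotation. They were listed by name, as a transcription factor pathway and a set of its secreted products, when earlier results of these data were already known. Chromatin accessibility at them was read from ATAC-seq peaks, places where the Tn5 transposase cut DNA more often than in the surroundings. A peak belonged to a gene when any base of it lay within the gene body or within 10 kb on either side, and it was a TSS peak when it came within 1 kb of an annotated transcription start site of that gene. When the peaks of all 4 lists were merged wherever they overlapped or touched, 55 of 128522 sites in the genome fell in the windows of the 10 genes. Of these, 14 were at a TSS of a member and 41 were distal.

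The cells were primary mouse embryonic fibroblasts (MEFs), donated as cultures from WT and Anp32e null embryos and used below passage 8. Anp32e encodes a chaperone that removes the histone variant H2A.Z from chromatin. WT MEFs and Anp32e null MEFs, neither transfected, had 3 libraries each. Null MEFs given a non-targeting siRNA pool (NT siRNA) had 1 library, and null MEFs given an siRNA pool against H2A.Z (H2A.Z siRNA) had 2, so that the null genotype is shared by all groups but WT. These numbers are those of the sample labels, whereas the series design speaks of triplicates. The study left out an over-tagmented replicate of its H2A.Z knockdown ATAC-seq datasets and does not say which siRNA it had received. Whether libraries of a group came from separate embryos is not given in the sources used here. Libraries of a group had been merged before peaks were called, which left 1 list per group and no replicate spread. Differences between lists are therefore given as values with counting error alone, and no test between conditions was possible.

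NF-kB factors are dimers, of which the pair of p50, made from Nfkb1, and p65, made from Rela, is the best known. In resting cells IκB proteins such as the product of Nfkbia hold the dimer in the cytoplasm. Signals from cytokine and Toll-like receptors lead to destruction of IκB, and the dimer then binds kB sites in promoters and enhancers of cytokine and chemokine genes, and of Nfkbia and Tnfaip3, whose products end the response. Fibroblasts are a known source of IL-6, of the monocyte attractants CCL2 and CCL7, of the neutrophil attractants CXCL1 and CXCL5, and of CXCL12, which keeps blood stem cells and lymphocytes in their niches and is made without a stimulus in many stromal cells.

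The promoters of 4 members held a match to the kB consensus within 250 bases before the TSS. They are printed because a peak lay over each of them in all 4 lists. The sequences are from RefSeq GRCm38.p6, the assembly of mm10, read 5′ to 3′ on the strand of the gene and ending at the base before the GENCODE start. Capitals mark matches to the kB consensus, searched on both strands, and to the AP-1 consensus TGANTCA. The Il6 promoter is chr5:30012864-30013113 (plus strand), that of Cxcl1 is chr5:90890991-90891240 (plus strand), that of Cxcl5 is chr5:90759110-90759359 (plus strand) and that of Nfkbia is chr12:55492648-55492897 (minus strand).
Il6: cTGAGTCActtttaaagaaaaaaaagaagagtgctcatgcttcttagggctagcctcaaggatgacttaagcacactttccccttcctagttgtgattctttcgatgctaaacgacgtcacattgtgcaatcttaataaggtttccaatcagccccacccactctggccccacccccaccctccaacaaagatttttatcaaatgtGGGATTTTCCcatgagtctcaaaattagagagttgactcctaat
Cxcl1: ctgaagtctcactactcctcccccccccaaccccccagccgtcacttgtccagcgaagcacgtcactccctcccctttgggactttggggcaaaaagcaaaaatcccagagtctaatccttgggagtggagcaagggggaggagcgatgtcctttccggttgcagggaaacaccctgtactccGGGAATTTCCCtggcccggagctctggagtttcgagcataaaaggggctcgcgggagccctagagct
Cxcl5: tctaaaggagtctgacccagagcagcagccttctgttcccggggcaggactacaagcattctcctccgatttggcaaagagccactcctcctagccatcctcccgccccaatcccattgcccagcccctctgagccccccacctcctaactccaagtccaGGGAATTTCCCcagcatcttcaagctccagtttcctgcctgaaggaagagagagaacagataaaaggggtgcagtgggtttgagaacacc
Nfkbia: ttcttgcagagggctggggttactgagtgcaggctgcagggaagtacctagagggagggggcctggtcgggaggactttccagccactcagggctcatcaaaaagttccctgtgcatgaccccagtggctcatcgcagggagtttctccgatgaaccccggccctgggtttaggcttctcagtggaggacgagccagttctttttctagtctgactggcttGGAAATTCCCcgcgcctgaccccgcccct
Relative to the TSS, the kB match lay at −44 to −35 in Il6 and at −29 to −20 in Nfkbia. In Cxcl1 and Cxcl5 it was GGGAATTTCCC, which reads as a match on each strand with an offset of a single base, from −67 to −57 and from −90 to −80. In Il6 a C/EBP consensus (TTGCNNAA) stood at −128 to −121 and an AP-1 consensus at −249 to −243. Neither Ccl2, Ccl7, Cxcl12, Nfkb1, Rela nor Tnfaip3 had the kB letters in this window, which says nothing of the factor. Some of these genes had a match under a peak elsewhere, as given below. Among all 21938 promoters of the same length, 7.80% held a kB match, against 4 of the 10 members. The genes were picked as known NF-kB genes, so this share is a description of the list.

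Outside the promoters, 5 sites are printed as windows of 201 bases around the summit in the list where the site ranked highest, on the strand of the gene. The first 2 held a kB match, as did further sites that are named below and not printed. The other 3 had a peak in every Anp32e null list and none in WT. The Rela window, intergenic and past the end of the gene, is chr19:5648826-5649026. The Ccl2 window, between Ccl2 and Ccl7, is chr11:82038764-82038964. The Nfkb1 windows, both intronic and the second also in an exon of the unverified transcript Gm43430, are chr3:135635732-135635932 and chr3:135651184-135651384 on the minus strand. The Cxcl12 window, intergenic and past the end of the gene, is chr6:117185476-117185676.
Rela downstream: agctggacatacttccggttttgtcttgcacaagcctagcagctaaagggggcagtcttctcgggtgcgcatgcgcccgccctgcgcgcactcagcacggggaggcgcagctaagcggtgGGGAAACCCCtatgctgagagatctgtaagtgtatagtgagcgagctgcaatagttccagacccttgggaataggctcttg
Ccl2 downstream: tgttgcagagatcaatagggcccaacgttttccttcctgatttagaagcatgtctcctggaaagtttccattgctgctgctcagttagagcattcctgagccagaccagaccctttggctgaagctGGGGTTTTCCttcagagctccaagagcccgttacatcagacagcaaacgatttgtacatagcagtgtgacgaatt
Nfkb1 intron, 55 kb site: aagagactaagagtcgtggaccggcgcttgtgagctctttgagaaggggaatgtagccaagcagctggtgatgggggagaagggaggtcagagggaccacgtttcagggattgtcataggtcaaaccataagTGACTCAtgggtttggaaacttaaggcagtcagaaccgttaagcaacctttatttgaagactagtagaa
Nfkb1 intron, 40 kb site: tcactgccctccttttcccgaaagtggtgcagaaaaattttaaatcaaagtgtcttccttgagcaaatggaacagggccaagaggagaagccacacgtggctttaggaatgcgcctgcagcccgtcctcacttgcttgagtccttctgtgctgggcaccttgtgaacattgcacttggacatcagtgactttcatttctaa
Cxcl12 downstream: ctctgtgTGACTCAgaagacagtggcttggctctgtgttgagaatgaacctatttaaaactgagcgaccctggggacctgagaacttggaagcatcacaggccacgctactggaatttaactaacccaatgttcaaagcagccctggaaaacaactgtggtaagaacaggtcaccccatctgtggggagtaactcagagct
An AP-1 consensus stood in the Cxcl12 window and in the first of the Nfkb1 windows. Over the 201-base windows of all 55 sites, 6 (10.9%) held a kB match, compared with 4.15% of the 128522 windows genome-wide. They were the printed Rela and Ccl2 windows, the TSS site of Nfkbia, both TSS sites of Tnfaip3 and the Cxcl12 site at 5254 bp. AP-1 matches were in 19 (34.5%) of the members' windows and in 29.4% of all windows, and C/EBP matches in 7 (12.7%) and in 8.68%. A match is a string of letters and no evidence of binding.

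Each peak carries a fold enrichment, the fragment pileup at its summit over the local background with 1 added to both. Because depth differed between lists, fold was turned into a percentile within its own list, where 100 is the strongest peak, and a rank difference is a difference of percentiles in points. A percentile leaves out any rise or fall that a whole list shares, so a lower rank need not mean a lower fold. The fragments behind each fold were recovered from the deposited values, and the 95% exact Poisson interval of that fragment number, with the background held fixed, gives the counting interval of the percentile. The fragments expected per position genome-wide were 8.85 in the WT list and 5.12 in the null list, against 3.88 with NT siRNA and 17.8 with H2A.Z siRNA. The H2A.Z siRNA list rests on 4.59 times the depth of the NT siRNA list. Enrichment did not follow depth. The median peak of the WT list had 50 fragments at its summit and a fold of 4.06, that of the null list 43 and 5.33, that of NT siRNA 54 and 7.06, and that of H2A.Z siRNA 156 and 5.42. In bulk ATAC-seq a site open in more cells and a site more open in each cell cannot be told apart. Nor can transfection be told apart from any other difference between the untransfected and the siRNA libraries.

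All 10 genes had a TSS peak in every list. Across protein-coding genes the share with such a peak was 67.2% in WT, 66.7% in null, 66.8% with NT siRNA and 68.4% with H2A.Z siRNA. The 10 of 10 genes leave a Wilson interval that reaches down to 72.2%. The genes were picked by name and not sampled, so this interval describes the list and shows no excess over these shares. This presence did not depend on the 1 kb window, since 500 bp gave 10 of 10 in each list as well. Among the top 20000 peaks of each list, TSS peaks remained for 4, 4, 5 and 4 of the 10 genes, in the same order of lists, compared with 40%, 38.3%, 35.5% and 34.1% of protein-coding genes. Cxcl1 and Tnfaip3 were among them in every list. Il6 was missing in WT alone, Rela in null alone and Nfkbia in H2A.Z siRNA alone.

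Of the 55 sites, 38 had a peak in WT, 43 in null, 47 with NT siRNA and 52 with H2A.Z siRNA. Over all merged sites in the genome the shares called were 63.8%, 62.4%, 67.2% and 84.2%, against 69.1%, 78.2%, 85.5% and 94.5% of the members' sites. With each list cut to its 82567 strongest peaks, 36, 43, 44 and 40 of 49 member sites were called, and H2A.Z siRNA no longer had the most. In the full lists, a peak in all 4 stood at 35 sites (63.6%, compared with 45.9% genome-wide), 12 of them at a TSS and 23 distal. The remaining 20 sites were distributed unevenly among the genes. Nfkb1, by far the longest gene of the set, had 10 of them, Cxcl12 had 4, Il6 had 2, and Ccl7, Cxcl1, Cxcl5 and Nfkbia had 1 each. All sites of Ccl2, Rela and Tnfaip3 were called in every list. Ccl2 and Ccl7 are neighbours on chromosome 11 and share 4 sites, which are counted once.

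**Figure D1:**
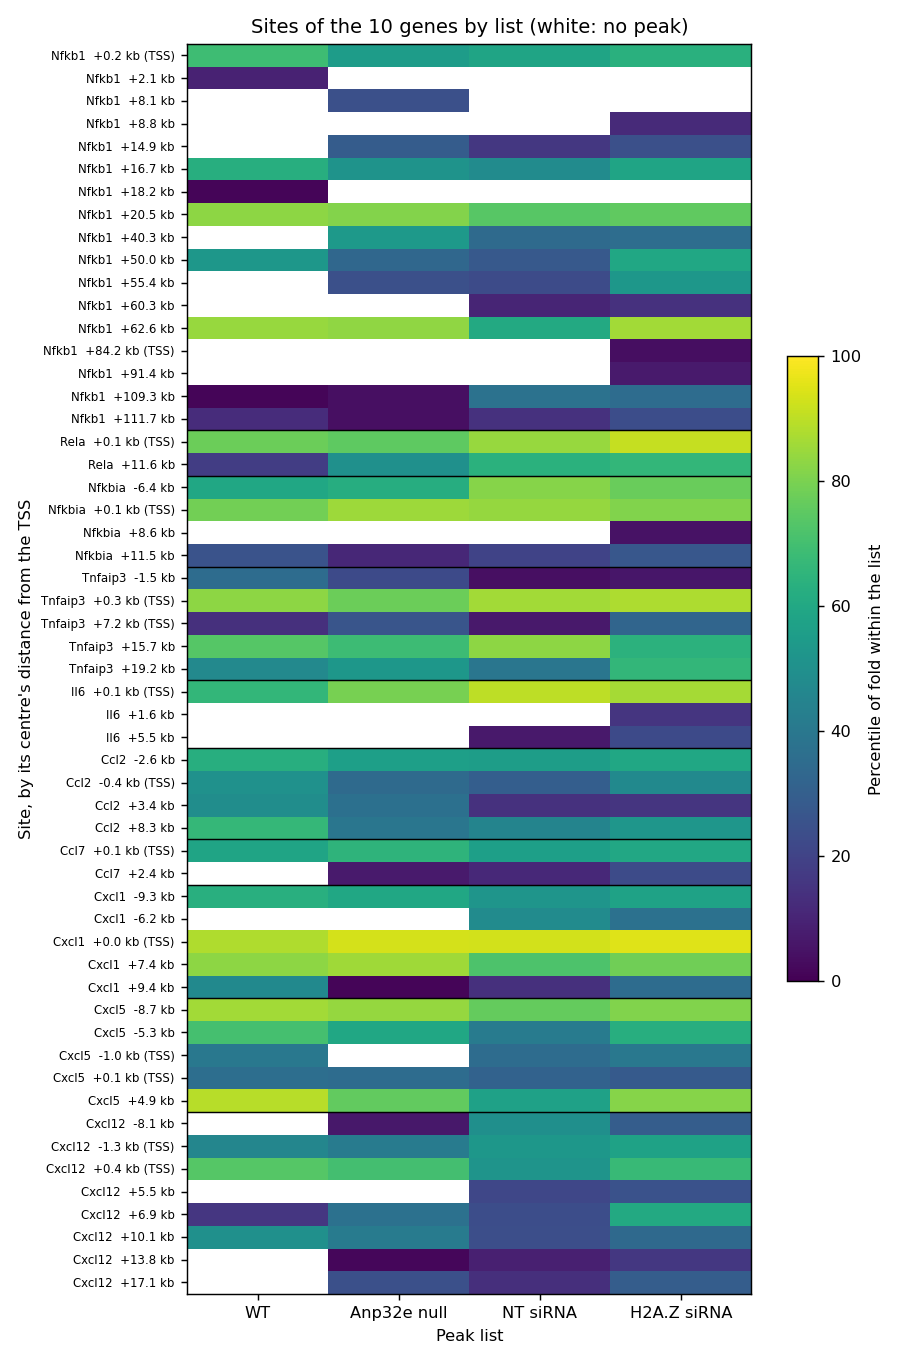
Each row is a site of the 10 genes, named by the distance of its centre from the TSS of the gene in kb, and each column is a peak list. Colour gives the percentile of fold within the list and white means no peak. The 35 sites with colour in every column include the main TSS site of each gene, and most white cells lie in Nfkb1 and Cxcl12.

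The order of the genes by the rank of their main TSS site, the TSS site of highest mean rank with an absent peak counted as 0, was similar in the 4 lists. By fold, Cxcl1 was highest in each, between 88.1 and 95.01. Nfkbia, Rela and Tnfaip3 lay between 75.1 and 91.3. Il6 joined them in the 3 null lists, whereas in WT, at 66.05, it was below Cxcl12 and Nfkb1. Nfkb1, Cxcl12 and Ccl7 were intermediate, from 51.7 to 73.8. Ccl2 and Cxcl5 were lowest, from 28.4 to 50.7. For Cxcl5 the other TSS site, absent in null, ranked somewhat higher where it was called, between 35.3 and 39.9. Neighbours in this order had overlapping counting intervals, except Nfkbia and Nfkb1 and then Cxcl12 and Cxcl5 in NT siRNA, and Nfkbia and Cxcl12, Ccl7 and Ccl2, and Ccl2 and Cxcl5 in H2A.Z siRNA. The order depended on the measure. Ranked by −log10 p, which grows with the number of fragments as well as with fold, the highest gene was Tnfaip3 in WT (88.4), Nfkbia in null (91.6) and Rela with NT siRNA (95.9) and H2A.Z siRNA (97.8), and Cxcl1 was first in no list. Cxcl5 was then lowest in each list, from 44.7 to 54.4, but Ccl2 was at 76.0, 69.4, 71.1 and 80.3, which in WT is above Il6, Ccl7 and Nfkb1. For comparison, the median over all protein-coding genes with a TSS peak, taking the highest peak of each gene, was 81.7 in WT, 80.0 in null, 79.5 with NT siRNA and 81.5 with H2A.Z siRNA. The promoters of Ccl7, Cxcl5 and Ccl2 had the lowest ratios of observed to expected CpG, 0.105, 0.161 and 0.196, compared with a median of 0.486 over all promoters. The next lowest, Il6 (0.277) and Tnfaip3 (0.306), belonged to genes of higher rank, and the highest was that of Nfkb1 (0.841), which was intermediate in rank. A relation of CpG content to rank was not tested.

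**Figure D2:**
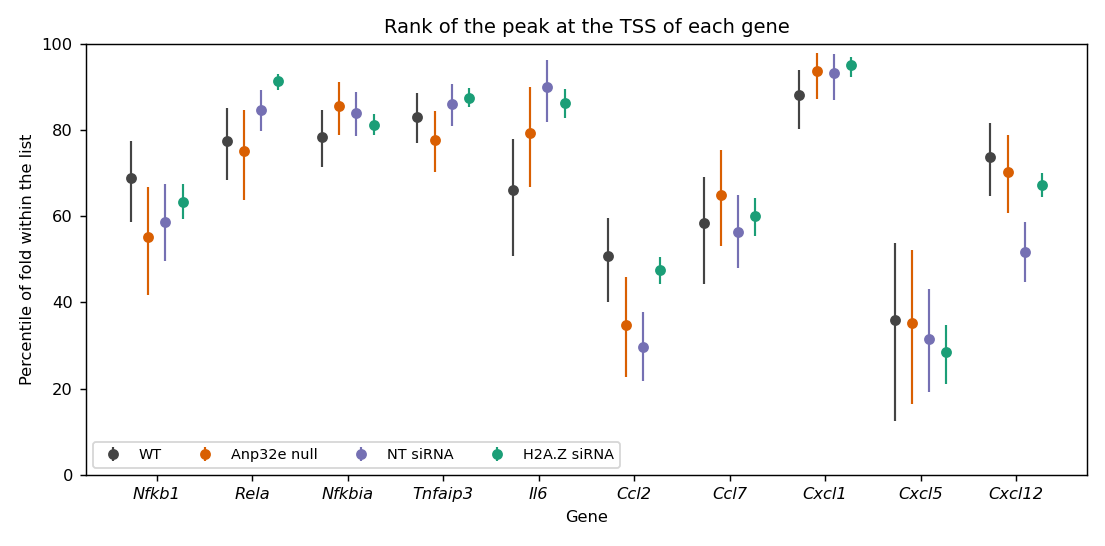
The vertical axis gives the percentile of fold of the main TSS peak within its list, and the horizontal axis the gene. Points are the 4 lists and bars the 95% counting interval. Cxcl1 is highest in each list, Ccl2 and Cxcl5 are lowest, and the intervals of WT and null overlap for each gene.

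Nfkb1 (ENSMUSG00000028163.17, chr3:135584655-135691547, minus strand) encodes the p105 precursor of p50. Its TSS peak lay at 68.9 in WT, 55.1 in null, 58.6 with NT siRNA and 63.3 with H2A.Z siRNA, on 101, 82, 133 and 464 fragments at the summit. WT was the highest and null the lowest list, with counting intervals that overlapped (58.8 to 77.5 and 41.8 to 66.8). This order depended on the ranking, since H2A.Z siRNA was lowest (51.8) with lists of equal length and highest (75.8) by −log10 p. The summit lay at −342 relative to the TSS in WT and at −380 in the other lists, and the peak was 1643, 1743, 1613 and 1840 bp wide, the widest TSS peak of the 10 genes in each list.

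The window of Nfkb1, whose body spans 106893 bp, held 10 of the 20 variable sites. The strongest distal site, an intronic one from 62152 to 63141 bp after the TSS, had percentiles of 84.6 in WT, 83.4 in null, 60.8 with NT siRNA and 86.0 with H2A.Z siRNA. NT siRNA was the low list, on 45 fragments, and its interval (44.6 to 75.5) did not reach that of H2A.Z siRNA (81.2 to 90.3). An intronic site at 20136 to 20862 bp was high throughout, from 74.2 in NT siRNA to 83.0 in WT.

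At 3 intronic sites of Nfkb1 a peak was called in every Anp32e null list and not in WT. The site at 40011 to 40639 bp had percentiles of 54.2 in null, 34.8 with NT siRNA and 35.7 with H2A.Z siRNA, on 34, 25 and 74 fragments. The site at 54945 to 55896 bp had 24.6, 22.9 and 52.9, and that at 14709 to 15084 bp had 29.3, 16.2 and 24.3. These are weak to moderate peaks, and their sequences at 40 kb and 55 kb are printed above. A site at 7841 to 8335 bp was called in null alone (24.6, on 21 fragments). The other 6 variable sites of Nfkb1 were weak, at 14.3 or lower. They comprised 3 sites in H2A.Z siRNA alone, 1 in both siRNA lists, and 2 in WT alone, at 1774 bp (9.45) and 18037 bp (1.18). The 2 WT-alone sites were the only such sites of the 10 genes and were singled out after their values had been seen.

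Rela (ENSMUSG00000024927.8, chr19:5637483-5648130, plus strand) encodes p65, the subunit that carries the main activation domain. Its TSS peak lay at 77.5 in WT, 75.1 in null, 84.8 with NT siRNA and 91.3 with H2A.Z siRNA, on 101, 83, 418 and 1680 fragments. Both siRNA lists were above both untransfected lists. The intervals of NT siRNA (79.9 to 89.3) and null (63.8 to 84.7) overlapped, and so did those of NT siRNA and H2A.Z siRNA (89.3 to 93.1) at their ends.

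The single other site of Rela, intergenic from 10812 to 12441 bp after the TSS, varied more. Its percentile was 18.2 in WT, 50.3 in null, 63.9 with NT siRNA and 66.4 with H2A.Z siRNA, on 41, 50, 209 and 820 fragments. The rank difference of 32.1 points between null and WT was the largest rise of a member in that comparison. The interval in WT was wide, 0.371 to 41.6, and overlapped that in null, 32.0 to 65.6, but neither siRNA list's interval (56.9 to 70.9 and 63.3 to 69.4) reached down to WT. The peak was 1071, 667, 1450 and 1630 bp wide.

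Nfkbia (ENSMUSG00000021025.8, chr12:55489410-55492647, minus strand) encodes IκBα, the inhibitor that NF-kB itself induces. Its TSS peak lay at 78.5 in WT, 85.5 in null, 84.1 with NT siRNA and 81.2 with H2A.Z siRNA, on 159, 192, 385 and 1208 fragments, all with overlapping intervals. The summit stood at the same base, 56 bases after the TSS, in the 4 lists, within 85 bases of the kB match printed above. A site from −7061 to −5818, in an exon of the non-coding transcript Gm36634, had percentiles of 59.4, 62.3, 81.8 and 77.3. Here both siRNA lists were higher than both untransfected lists, and the interval in NT siRNA, 72.8 to 89.6, overlapped that in null, 47.7 to 74.6, by under 2 points. A site at 8401 to 8732 bp was called in H2A.Z siRNA alone, at 4.76.

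Tnfaip3 (ENSMUSG00000019850.11, chr10:19000910-19015657, minus strand) encodes A20, a ubiquitin-editing enzyme that switches off signalling to NF-kB. Its TSS peak lay at 83.1 in WT, 77.7 in null, 86.0 with NT siRNA and 87.6 with H2A.Z siRNA, on 173, 170, 374 and 1406 fragments. The null list was lowest, with an interval (70.3 to 84.5) that overlapped that of WT (76.9 to 88.6). Its strongest distal site, past the end of the gene at 15099 to 16205 bp, was at 73.7, 68.5, 83.1 and 64.1. NT siRNA was highest there, with an interval (74.7 to 90.3) above that of H2A.Z siRNA (59.8 to 68.3). A site upstream of the promoter, from −1735 to −1166, was lower in both siRNA lists than in both untransfected lists, at 35.5, 22.4, 4.06 and 5.94. Its intervals in null (6.02 to 37.7) and NT siRNA (0.798 to 13.1) overlapped.

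Il6 (ENSMUSG00000025746.11, chr5:30013114-30019981, plus strand) encodes interleukin-6, the main acute-phase cytokine of fibroblasts. Its TSS peak lay at 66.05 in WT, 79.4 in null, 90.0 with NT siRNA and 86.3 with H2A.Z siRNA, on 53, 61, 143 and 594 fragments. The order WT, null, siRNA lists was clear in the values, but the intervals of neighbours overlapped, 50.8 to 77.96 in WT, 66.8 to 90.0 in null and 81.9 to 96.2 in NT siRNA. WT and NT siRNA did not overlap. The null–WT difference of 13.4 points was the largest rise at a main TSS site of a member, and 6.39% of all sites at protein-coding promoters called in both lists rose as far. The rise was seen under each ranking used, between 10.3 points by −log10 p and 17.6 points at equal depth. The summit lay between 213 and 217 bases after the TSS in the 4 lists, in the transcribed 5′ part of the gene and not over the kB match, and the peak was 896, 846, 946 and 961 bp wide. Inside the gene, a site at 1434 to 1725 bp was called in H2A.Z siRNA alone (15.6), and a site at 5240 to 5702 bp in NT siRNA (6.96) and H2A.Z siRNA (22.3). These intragenic peaks rested on 129, 14 and 56 fragments.

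Ccl2 (ENSMUSG00000035385.5, chr11:82035571-82037453, plus strand) encodes the monocyte attractant MCP-1. Its TSS site lay at 50.7 in WT, 34.8 in null, 29.7 with NT siRNA and 47.5 with H2A.Z siRNA, on 158, 126, 190 and 839 fragments. WT and H2A.Z siRNA were high, null and NT siRNA low, but with lists of equal length H2A.Z siRNA (31.1) fell below null (34.8). The interval in NT siRNA, 21.9 to 37.8, lay below that in H2A.Z siRNA, 44.2 to 50.6, whereas those of null (22.7 to 45.9) and WT (40.1 to 59.7) overlapped. The difference between H2A.Z siRNA and NT siRNA was 17.8 points, and 6.87% of promoter sites rose as far. By −log10 p it was 9.24 points and with lists of equal length 7.04 points. Peak shape varied too. In WT the summit lay at −837 and in the other lists between −86 and −74. The peak was 1172 bp wide in WT, 1199 in null and 1249 in H2A.Z siRNA, but in NT siRNA the site was called as 2 peaks, the higher of them 377 bp wide.

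The other sites around Ccl2 were called in every list. The upstream site from −3265 to −1876, in an intron of the gene model Gm17268, was steady at 62.6, 56.3, 55.7 and 59.5. The site at 2853 to 3883 bp, printed above for its kB match, was at 49.1, 37.1, 14.2 and 15.6, with both siRNA lists below both untransfected lists. It is also within 1 kb of a start of Gm17268. The site at 7896 to 8663 bp was at 66.7, 39.4, 45.3 and 52.7, and the interval in null, 23.2 to 52.9, lay below that in WT, 57.5 to 74.8.

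Ccl7 (ENSMUSG00000035373.2, chr11:82045712-82047525, plus strand) encodes MCP-3, another monocyte attractant. Its TSS peak lay at 58.5 in WT, 65.0 in null, 56.3 with NT siRNA and 60.0 with H2A.Z siRNA, on 78, 86, 148 and 378 fragments, with overlapping intervals throughout. The peak was 426 to 521 bp wide, the narrowest main TSS peak of the set apart from that of Ccl2 in NT siRNA. A site at 2184 to 2598 bp, past the end of the gene, was not called in WT and was at 7.14 in null, 11.5 with NT siRNA and 22.8 with H2A.Z siRNA.

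Cxcl1 (ENSMUSG00000029380.11, chr5:90891241-90893115, plus strand) encodes the neutrophil attractant KC. Its TSS peak was at 88.1 in WT, 93.7 in null, 93.3 with NT siRNA and 95.01 with H2A.Z siRNA, on 99, 140, 205 and 757 fragments, with overlapping intervals. The peak widened from 840 bp in WT to 885 in null, 924 with NT siRNA and 1055 with H2A.Z siRNA. A site from −6490 to −5836 was called in the siRNA lists alone, at 48.3 with NT siRNA and 37.5 with H2A.Z siRNA, the strongest peaks of any site missing from both untransfected lists. The strongest distal site, at 7009 to 7791 bp, had 83.0, 85.9, 72.3 and 78.4. The site at 9005 to 9745 bp fell from 47.5 in WT to 1.34 in null, on 43 and 19 fragments, and was at 13.7 with NT siRNA and 35.5 with H2A.Z siRNA. Its intervals in WT (24.6 to 63.8) and null (0 to 23.4) did not overlap. The difference of −46.1 points was the largest decrease of the members in the comparison of null with WT.

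Cxcl5 (ENSMUSG00000029371.7, chr5:90759360-90761624, plus strand) encodes LIX, which also attracts neutrophils and lies upstream of Cxcl1 in the same cluster. Its main TSS peak was weak in each list, at 36.0, 35.3, 31.5 and 28.4, on 52, 51, 90 and 210 fragments, although its promoter carries the same 11-base kB string as Cxcl1. A second TSS site, from −1270 to −801, was called in WT (39.9), NT siRNA (35.3) and H2A.Z siRNA (39.9) and not in null, the only site of the 10 genes with that pattern. The 3 distal sites ranked above the main TSS peak in every list. The site from −8952 to −8408, over the pseudogene Gm43090, was at 86.2, 84.2, 76.4 and 81.2. The site at 4478 to 5412 bp was at 89.3 in WT, 75.8 in null, 57.2 with NT siRNA and 81.7 with H2A.Z siRNA, and the interval in NT siRNA, 46.6 to 67.0, lay below that in H2A.Z siRNA, 78.3 to 85.1. The site from −5497 was at 70.5, 59.5, 41.8 and 62.9, and its interval in NT siRNA (31.8 to 51.5) overlapped that of the main TSS peak (19.3 to 43.0).

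Cxcl12 (ENSMUSG00000061353.11, chr6:117168535-117181367, plus strand) encodes SDF-1. Its main TSS peak lay at 73.8 in WT, 70.3 in null, 51.7 with NT siRNA and 67.3 with H2A.Z siRNA, on 107, 113, 217 and 933 fragments. NT siRNA was low, and its interval (44.7 to 58.7) overlapped none of the others (64.6 to 81.7, 60.7 to 78.9 and 64.5 to 70.1). Against null the difference was −18.6 points, a size reached by 4.19% of promoter sites called in both lists. This depended on the measure of rank, since by −log10 p the difference was 1.38 points in the opposite direction. The peak was 1208, 1003, 1041 and 1614 bp wide.

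Cxcl12 had 4 sites in WT, 7 in null and 8 in each siRNA list. The site from −8415 to −7876 was at 6.599 in null, 49.8 with NT siRNA and 29.3 with H2A.Z siRNA. The site at 13046 to 14647 bp was at 1.64, 8.81 and 16.4 in the same lists, and that at 16908 to 17373 bp, printed above, at 24.6, 13.4 and 29.3. A site at 5254 to 5777 bp was called in the siRNA lists alone, at 21.5 and 25.4. The 3 sites called in null rested there on 16 to 21 fragments. Of the sites called throughout, that at 9759 to 10348 bp was at 50.3, 41.4, 24.2 and 34.3, and that at 6529 to 7228 bp at 15.7, 37.2, 23.7 and 60.7. The latter rose by 37.0 points between NT siRNA and H2A.Z siRNA, the largest rise of the members there, and the intervals (12.8 to 34.1 and 57.2 to 63.8) did not overlap.

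**Figure D3:**
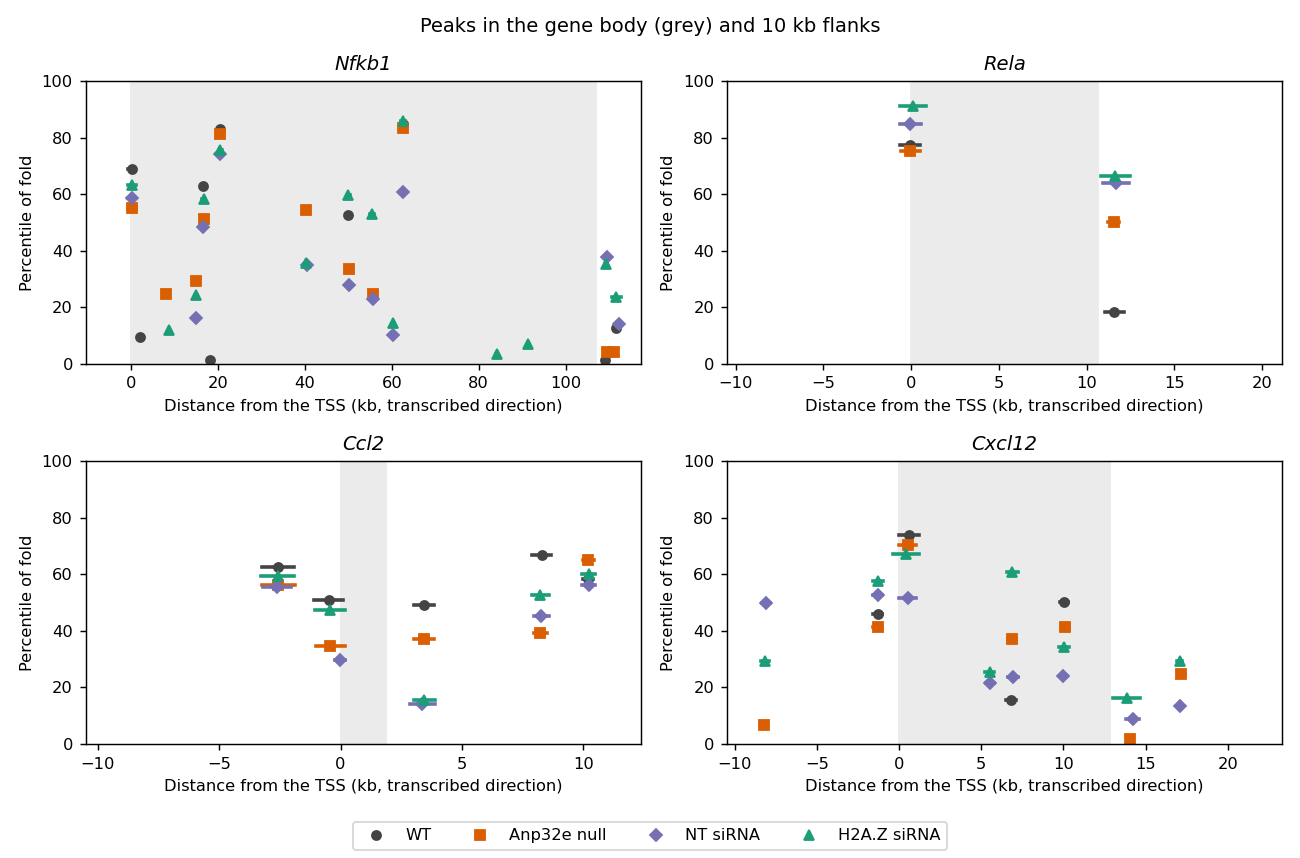
Panels show Nfkb1, Rela, Ccl2 and Cxcl12, with the distance from the TSS in kb along the gene on the horizontal axis and the percentile of fold within the list on the vertical axis. Symbols mark the centre of each peak and bars its width, and grey is the gene body. The Rela site near 11 kb runs from 18.2 in WT to 66.4 in H2A.Z siRNA, and several Nfkb1 and Cxcl12 sites have no WT symbol.

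To ask which sites changed in rank within their list upon ANP32E loss, the 35 sites called in both WT and null were compared. At 4 sites the rank was higher by 10 points or more in null and at 11 it was lower, or 11.4% and 31.4%, compared with 19.1% and 21.4% of all 66194 sites called in both. The median difference was −3.51 points (−8.87 to −0.675, order-statistic interval over sites), compared with −0.741 over all sites, and it was −0.0684 by −log10 p (−0.214 over all sites) and −0.743 at equal depth (1.34 over all sites). The rises were at the Il6 and inner Tnfaip3 TSS sites, the Cxcl12 site at 6529 bp and the Rela site at 10812 bp. The decreases included the TSS sites of Ccl2 (−15.99 points) and Nfkb1 (−13.8 points) and 9 distal sites. Fold in WT and null was 4.13 and 4.17 at the Ccl2 TSS site and 5.83 and 5.82 at that of Nfkb1. The median fold was 4.06 in WT and 5.33 in null. At the distal sites fold went either way, as at Cxcl5 −5497 (6.02 and 6.28) and the Ccl2 site at 7896 bp (5.57 and 4.47). Counting intervals were apart at 2 sites, the Cxcl1 site at 9005 bp and the Ccl2 site at 7896 bp, both lower in null, and at no TSS. Over all sites they were apart at 1.73% with null higher and at 2.93% with null lower. The number of lower sites depended on the measure. Ranking by −log10 p left 4 of 35, against 19.8% of all sites, and equal depth left 6 of 33, against 15.05% of all sites. The decreases at the Ccl2 and Nfkb1 TSS sites were −6.65 and −6.80 points by −log10 p. Median peak width was nearly the same, at a ratio of 0.994.

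By presence, 8 of the 46 sites called in either list were called in null alone and 3 in WT alone, compared with 14.6% and 16.4% of all such sites. That is 17.4% (Wilson interval 9.09 to 30.7%) and 6.52% (2.24 to 17.5%), so that both intervals hold the genome-wide share. Of the 8, 7 were called again in both siRNA lists, 3 in Nfkb1, 3 in Cxcl12 and 1 near Ccl7. Sites called in every null list and not in WT were 12.7% of the members' sites and 5.50% of all sites.

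H2A.Z siRNA was then compared with NT siRNA within Anp32e null cells. Of 47 sites called in both, 15 were higher by 10 points or more and 3 lower, or 31.9% and 6.38%, close to the 33.6% and 6.08% of all sites. With lists of equal length 7 of 39 were higher and 8 lower, against 17.6% and 19.4% of all sites. The median difference was 5.51 points (3.81 to 9.54), compared with 4.98 over all sites. It was 2.55 at equal depth, with 1.87 over all sites, and once each list was shortened to its 82567 strongest peaks the direction turned, to −3.89 points for the members and −0.561 over all sites. The largest rises were at the Cxcl12 site at 6529 bp (37.0 points), the Nfkb1 introns at 49573 bp (31.6) and 54945 bp (30.0), and the Tnfaip3 site at 18794 bp (26.8). The decreases were at Cxcl12 −8415 (−20.5 points), the Tnfaip3 site at 15099 bp (−18.98) and Cxcl1 −6490 (−10.8). Counting intervals were apart at 9 sites, 8 of them higher after H2A.Z siRNA, including the TSS sites of Ccl2 and Cxcl12, and 1 lower, compared with 13.1% and 1.56% of all sites. These intervals set lists of unequal length side by side. Of 52 sites called in either list, 5 were called in H2A.Z siRNA alone and 0 in NT siRNA alone, compared with 23.5% and 4.16% genome-wide. The Wilson interval of the former is 4.18 to 20.6%, below the genome-wide share, and the upper Wilson bound on the latter is 6.88%. The genes were picked by name, so these intervals describe the list. Peaks were wider after H2A.Z siRNA at 40 of the 47 sites, with a median ratio of 1.15 against 1.24 over all sites. The H2A.Z siRNA list is the deeper of the pair, and the part of depth in these widths was not tested.

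Transfected and untransfected Anp32e null cells were compared through NT siRNA and null, which shares the null list with the comparison of null and WT. Of 42 sites called in both, 9 were higher in NT siRNA by 10 points or more and 14 lower, or 21.4% and 33.3%, compared with 26.9% and 20.4% of all sites. By −log10 p the balance turned, with 11 higher and 7 lower, against 28.6% and 20.3% of all sites. The median difference was −3.37 points (−8.66 to 4.37), compared with 0.473 over all sites. This median changed sign by −log10 p, to 3.02 points (1.33 over all sites), and was −7.93 points with lists of equal length (−1.31 over all sites). Rises were largest at Cxcl12 −8415 (43.2 points), the Nfkb1 site at 108947 bp (33.4) and Nfkbia −7061 (19.5). Decreases were largest at the Ccl2 site at 2853 bp (−22.9 points), the Nfkb1 intron at 62152 bp (−22.5) and the intronic Nfkb1 site at 40011 bp (−19.5). Counting intervals were apart at the Cxcl12 TSS alone, lower in NT siRNA, compared with 5.79% of all sites higher and 4.6% lower. Of 48 sites called in either, 5 were called in NT siRNA alone and 1 in null alone, compared with 19.2% and 13.1% of all sites. The Wilson intervals are 4.53 to 22.2% and 0.369 to 10.9%, of which the second lies below its genome-wide share. Across the 4 lists, 4 sites were called in both siRNA lists and neither untransfected list, in Il6, Cxcl1, Cxcl12 and Nfkb1, or 7.27% compared with 8.99% of all sites.

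**Figure D4:**
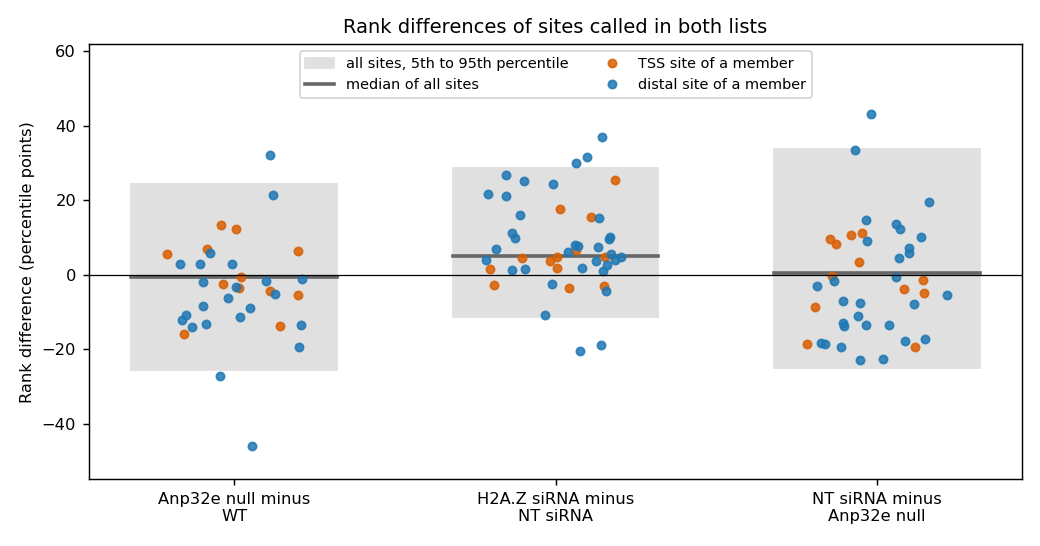
The vertical axis gives the difference of percentiles between the 2 lists named on the horizontal axis, for member sites called in both. Points are sites at a member's TSS or distal, the grey box spans the 5th to 95th percentile of all sites called in both lists and the dark line is their median. Member sites lie mostly inside the box in each comparison, and the H2A.Z siRNA comparison is shifted upward for members and for all sites.

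At gene level, taking the highest TSS peak of each gene, the 10 members had 1 rise and 2 decreases of 10 points or more in null against WT, compared with 6.52% and 11.1% of protein-coding genes. In H2A.Z siRNA against NT siRNA they had 2 rises and 0 decreases, compared with 14.1% and 2.56%. In NT siRNA against null they had 1 and 1, compared with 13.5% and 12.3%. With 10 genes these counts are too small to set apart from the genome-wide shares.

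The wider pathway was read from a list of 74 other genes. A TSS peak was called for 58 in WT, 59 in null, 59 with NT siRNA and 61 with H2A.Z siRNA, and 57 genes had one in all 4 lists and 10 in none, compared with 63.8% and 28.8% of protein-coding genes. The 7 other NF-kB subunits and inhibitors and the 21 kinases and adaptors all had a TSS peak in every list. Of 14 receptors 12 did, with the chemokine receptor genes Cxcr2 and Ccr2 without a peak in any list. Of 21 other cytokines and chemokines 9 had one in all 4 lists, 4 had one in a single list and 8 had none anywhere, Il1a, Il1b, Csf2, Ccl3, Ccl4, Ccl5, Ccl11 and Ccl20. 

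Presence at the TSS varied among lists for 7 pathway genes, all through weak peaks. Tnf had one in NT siRNA alone (percentile 10.8), Ccl12 in WT alone (17.2), Cxcl2 in null alone (7.92), and Cxcl3 (25.7), the serum amyloid gene Saa3 (23.8) and the lipocalin gene Lcn2 (6.81) in H2A.Z siRNA alone. Icam1, an adhesion molecule induced by NF-kB, had none in WT and was at 2.58 in null, 24.6 with NT siRNA and 20.04 with H2A.Z siRNA.

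Over the pathway list, 3 genes rose and 8 fell by 10 points or more in null against WT of 57, 8 and 0 of 58 in H2A.Z siRNA against NT siRNA, and 9 and 6 of 58 in NT siRNA against null. The shares of all protein-coding genes, given above, were 6.52% and 11.1%, 14.1% and 2.56%, and 13.5% and 12.3%. In null against WT the largest rises were at the chemokine gene Ccl8 (33.6 points), the adaptor Traf3 (27.3) and Csf3 (11.1). The largest decreases were at the lymphotoxin receptor Ltbr (−20.9 points), Tnip2 (−16.5), a partner of A20, and Cxcl16 (−15.8). In H2A.Z siRNA against NT siRNA, Ccl8 (39.2), the TNF receptor Tnfrsf1a (36.5) and Tnip2 (14.4) rose furthest, and the largest decreases were small, at Traf2 (−8.18 points), Icam1 (−4.53) and Relb (−4.01). In NT siRNA against null, Cxcl16 (37.1), Mmp9 (31.9) and Il11 (23.7) rose, and Tnfrsf1a (−34.7 points), Ccl8 (−27.9) and Ptgs2 (−17.5), the gene of cyclooxygenase 2, decreased. Ccl8, named in each comparison, was at 17.2 in WT, 50.8 in null, 22.9 with NT siRNA and 62.2 with H2A.Z siRNA. These genes are extremes of their list, and no counting intervals are given for them.

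The labelled cell type was checked at the same TSS windows. Of 10 fibroblast markers 9 had a TSS peak in every list, from Prrx1 (5.98 to 30.1) and Col1a1 (26.6 to 39.7) to Fn1 (72.7 to 87.6), and Lum had none. Of 8 macrophage and blood markers Ptprc, Adgre1 and Itgam had no peak in any list, and Spi1 a single weak one in H2A.Z siRNA (6.14). Cd14 (72.3 to 80.1), Csf1r (48.3 to 59.5) and Cd68 (15.4 to 43.0) had peaks in all 4 lists. Lyz2 had one in the untransfected lists alone (16.4 in WT and 19.6 in null). Of 5 endothelial markers Kdr (86.8 to 90.2), Tek (77.8 to 91.9) and Cdh5 (12.6 to 54.9) had a peak in every list, Pecam1 in all but null, and Tie1 in none. Of 5 epithelial markers Epcam (30.6 to 58.1) and Cdh1 (36.7 to 68.2) had one in every list, Krt18 in the siRNA lists, and the keratin genes Krt5 and Krt14 in none. The part of other cell types in the members' peaks was not tested. A peak at a promoter is not a measure of expression, and no RNA values were used here.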

How the data were processed

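ATAC-seq libraries of the 4 groups had been aligned to mm10 with Bowtie2, freed of duplicates with Picard, merged by group and peak-called with MACS2 in paired-end mode by the authors. The 4 peak lists, cut to chromosomes 1 to 19, X and Y (84040, 82567, 89272 and 108409 peaks), were used here. The deposited fold column is a ratio of summit pileup to local background, the authors' p-values and q-values are −log10 values, and the deposited score column was not used.

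Pileup and background were solved from fold and the −log10 p of a Poisson test. All pileups came out within 0.05 of a whole number. In a test on simulated data, the step recovered every pileup. Fragments are not independent molecules once counted over libraries, so intervals cover counting error only. For the values called equal depth, pileup and background were scaled to the lowest genome-wide background and tested again, which matches the background but not the summit pileups or the counting noise. Annotation was GENCODE M21 (132629 start sites), sequence RefSeq GRCm38.p6. Percentiles, Wilson and exact intervals were computed with SciPy 1.17.1, pandas 2.3.3 and NumPy 2.4.6 under Python 3.11.15, and plots with matplotlib 3.10.9.

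Members, gene lists and alternatives were chosen with earlier results of these data known. Each gene was described by its TSS site of highest mean rank (an absent peak counted as 0), up to 4 sites called in some lists only, by rank, and its strongest distal site. Other sites were named after their values had been seen. Of the pathway genes, those with a TSS peak in some lists only and the 3 largest rises and decreases per comparison were named. The alternatives were other TSS windows, flanks, transcripts, thresholds, list lengths, depth, summits and ranking by −log10 p.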

Additional observations from a re-analysis of the deposited data

How the results depend on the processing

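No paired analysis was possible because libraries had been merged by group before peaks were called, which also left no replicate to leave out. Of the 106 alternative values of the counts and medians over the members, 81 stayed within 1.5 times the main count or inside the interval of the main median, 24 moved further, and a direction turned at 1 median whose main interval had not held 0. Of 210 values for single genes 154 stayed within the counting interval or 5 points, 55 moved further and 1 difference of 10 points or more turned. With the top 20000 peaks of each list, 4, 4, 5 and 4 genes had a TSS peak in WT, null, NT siRNA and H2A.Z siRNA, and 9, 9, 7 and 6 sites were called. Gene bodies without flanks held 19, 21, 23 and 27 called sites. In null against WT, ranking by −log10 p brought the median difference to −0.0684 points and the number of lower sites to 4, and equal depth brought that number to 6. In H2A.Z siRNA against NT siRNA, the median was 2.85 by −log10 p, 2.55 at equal depth and −3.89, thus reversed, with 82567 peaks from each list. That setting removes the weakest peaks of the longest list, which lowers each remaining percentile there. The median over all sites went to −0.561 as well, and 7 member sites were higher and 8 lower, compared with 17.6% and 19.4% of all sites. Lower sites numbered 1 by −log10 p and 1 with a flank of 5 kb, against 4.08% and 6.08% of all sites. In NT siRNA against null, the median went from −3.37 to 3.02 by −log10 p and to −7.93 at equal list length, which left 5 higher sites (22.8% of all sites), while the lower sites numbered 7 by −log10 p (20.3%) and 9 among peaks with a −log10 q of at least 5 (17.2%). By −log10 p the Cxcl12 TSS difference in that comparison turned to 1.38 points. The cause of these shifts was not tested, apart from the shortened list. Rank differences of single TSS peaks at equal depth were added after the data had been seen. The weakest member peaks of NT siRNA rested on 14 to 20 fragments. At equal depth 35, 43, 47 and 48 member sites were called in WT, null, NT siRNA and H2A.Z siRNA.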
